A study of Mus musculus with 29 samples.

Results

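Intergenic CpGs that were read in every methylation library of the series are described here. A CpG is a cytosine followed by a guanine, and the reads of both strands were merged. A CpG was taken when it had at least 1 read in all 15 methylation libraries, lay outside every gene interval of the deposited gene table, and was more than 1 kb from any gene start. A fixed stretch on each of chromosomes 2, 7 and 9 was left out. This gave 3456 of the 15072 CpGs read in all 15 libraries, and of 2612080 CpGs read in any of them. The choice used coverage and position, not methylation, so methylation levels could be measured without having been used to choose the CpGs.

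The series profiled pancreatic islets of male wild-type C57BL/6 mice (C57/BL6J in the growth notes) by bisulfite sequencing of DNA and by RNA sequencing. Young mice were 8 weeks old at the start of the diet and old mice were 52 weeks old. Each age received a diet with 13.1% or 41% of kcal from fat for 1 week, called standard and high-fat diet below. The methylation libraries numbered 4 for young standard, 4 for young high-fat, 4 for old standard and 3 for old high-fat. The labels do not say whether the libraries of a group came from separate mice, so p-values measure only the spread between these samples, which may be technical.

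In mammalian DNA most CpGs carry a methyl group on the cytosine, except in CpG-rich stretches at gene starts, which are usually unmethylated. Between genes, the lowly methylated stretches are often enhancers or alternative starts, where bound factors keep methylation away. An islet holds insulin-producing beta cells with several other cell types, so a level of 50% can come from a mixture of methylated and unmethylated cells or DNA copies.

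Only 2 of the 32851 promoter windows in the RefSeq table (GRCm38.p6, the same build as mm10) held any of these CpGs. Each window runs from 250 bases before a RefSeq gene start to 50 bases after it. They are shown because each marks a transcript start that the deposited gene table does not have. Capitals mark the CpGs read in all 15 libraries, and the 6-letter capital run CACGTG in the Mlxipl window marks an E-box, the motif bound by basic helix-loop-helix factors.
Mlxipl, chr5:135089640-135089939, forward strand: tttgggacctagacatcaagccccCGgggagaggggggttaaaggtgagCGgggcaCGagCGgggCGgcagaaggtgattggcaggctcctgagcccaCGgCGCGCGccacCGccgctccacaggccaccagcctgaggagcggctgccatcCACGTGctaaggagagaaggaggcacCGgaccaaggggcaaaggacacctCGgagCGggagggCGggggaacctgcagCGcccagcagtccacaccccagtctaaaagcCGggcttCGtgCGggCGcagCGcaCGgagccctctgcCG
4930423B08Rik, chr10:69328212-69328511, reverse strand: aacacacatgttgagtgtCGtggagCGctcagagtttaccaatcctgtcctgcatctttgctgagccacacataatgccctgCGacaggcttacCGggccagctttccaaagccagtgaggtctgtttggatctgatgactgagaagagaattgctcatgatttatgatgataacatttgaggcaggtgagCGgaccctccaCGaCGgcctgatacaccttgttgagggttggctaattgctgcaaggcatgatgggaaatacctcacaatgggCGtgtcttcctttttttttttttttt

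The Mlxipl window has 25 CpGs in its 300 bases, and 22 of them were read in every library. Mlxipl encodes ChREBP, the transcription factor that turns glucose metabolism into gene activation in beta cells and liver. RefSeq lists 2 starts for this gene, and the upstream start lies 17.0 kb before the start in the deposited table. ChREBP is known to activate its own upstream start, which gives the shorter form ChREBP-beta. The single E-box begins at base 153 of the window, before the start at base 251. CACGTG reads the same on both strands, and 7.15% of all RefSeq promoter windows of this length hold it. The CpG inside this E-box was not among those read in every library. The 4930423B08Rik window, within the Cdk1 locus, has 8 CpGs, all read in every library, and no CACGTG. RefSeq gene intervals contained 535 of the 3456 CpGs (15.5%), although all 3456 lie outside the gene intervals of the deposited table.

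The 22 CpGs of the Mlxipl window had low to intermediate methylation, from 0% to 33.9% per CpG with a median of 19.6%. The CpGs of the 4930423B08Rik window ranged from 32.9% to 78.0%. Summed over the Mlxipl window, the 4 young standard libraries read 23.5%, 13.6%, 7.98% and 36.5%, and the young high-fat libraries 25.2%, 22.5%, 13.9% and 7.58%. The old standard libraries read 12.8%, 19.2%, 20.5% and 10.9%, and the old high-fat libraries 19%, 8.00% and 25%. The 4 groups overlapped, with 63 to 208 reads over the window in a library. Their means were 20.4% ± 12.5 (SD, n = 4), 17.3% ± 8.1 (SD, n = 4), 15.9% ± 4.7 (SD, n = 4) and 17.3% ± 8.6 (SD, n = 3). In the authors' deposited table Mlxipl RNA differed between diets by -0.05 (log2) in young and -0.00394 (log2) in old islets, neither with an adjusted p under 0.05.

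Libraries listed 488262 to 799617 reads over CpGs, and the median coverage of a listed CpG strand was 1 read. The intergenic CpGs were far deeper, with a mean of 8.71 to 14.0 reads each in a library, but only 370 of the 3456 had 10 or more reads in every library. In the RNA libraries of the series, islet hormone transcripts were abundant in all 14, with Ins1 at 37949 to 86203 CPM (counts scaled to a common library total). Transcripts of the exocrine acinar cells were also present, with Ctrb1 at 353 to 26843 and Pnlip at 471 to 27254 CPM. How much acinar DNA each methylation library held was not tested. Among genes of blood and vessel cells, the lymphocyte gene Cd3e was lowest, between 0.0283 and 3.80 CPM. The B lymphocyte gene Cd79a was higher, at 2.76 to 19.6 CPM. Csf1r stood at 9.71 to 48.0 and Pecam1 at 37.7 to 59.97 CPM, so transcripts of such cells were present in every RNA library. Their share in the methylation libraries was not tested.

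Most intergenic CpGs were highly methylated. Their mean level was 73.8% and their median 83.9%, averaged over the 15 libraries. Of the 3456, 2081 (60.2%) were at 80% or more, 1058 were between 20% and 80%, and 317 (9.17%) were under 20%. Within the last set, 227 were under 5%. CpGs within 1 kb of a gene start had a mean of 19.3%, and CpGs inside genes a mean of 74.3%. The intergenic mean exceeded the gene-start mean by 53.9 to 55.7 percentage points in 15 of 15 libraries. It was above the gene-body mean in 1 of 15 libraries, with differences from -1.06 to 0.06 points. Just outside the 1 kb border, the 38 intergenic CpGs up to 100 bp farther out averaged 60.3%, and just inside it the 41 CpGs up to 100 bp nearer averaged 58.5%.

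**Figure D1:**
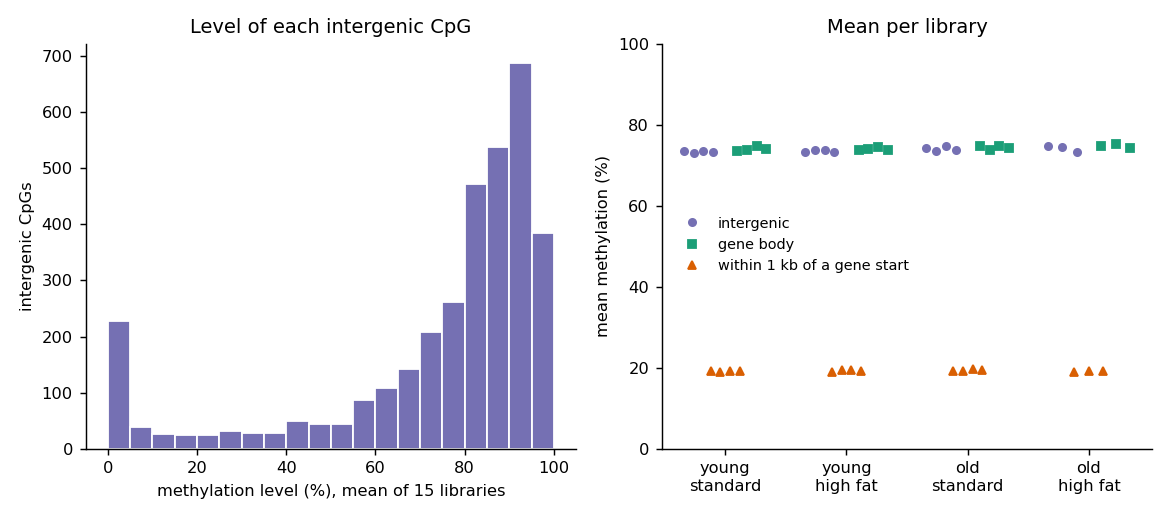
Left, the number of intergenic CpGs (vertical axis) by methylation level in percent, averaged over 15 libraries, in bins of 5 points. Right, the mean methylation in percent of each library (1 point each) for intergenic, gene-body and gene-start CpGs in the 4 groups. Most CpGs lie at 80% or more, a second peak lies under 5%, and the intergenic means sit near 74% in every group.

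Levels differed with the local density of CpGs read in any library and, mostly through 1 region, with distance from genes. Neighbouring CpGs that no library read were not counted. CpGs with 15 or more other CpGs within 100 bp had a median of 1.33% (113 CpGs), and those with 10 to 14 a median of 2.00% (117 CpGs). CpGs with 0 or 1 such neighbour in that window had a median of 82.8% (894 CpGs). Much of this rested on the region upstream of Ccnd1. Without it the medians of the densest classes were 21.5% and 79.3%. CpGs at 1 to 2 kb from a gene start were under 20% in 23.0% of cases, against 15.3% at 2 to 5 kb, 1.69% at 5 to 10 kb, 7.36% at 10 to 20 kb and 4.89% beyond 20 kb. Without the Ccnd1 region the shares at 1 to 2 kb and 2 to 5 kb were 9.57% and 3.85%, and the farther shares were unchanged. With or without it, the share did not fall steadily with distance.

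The reads were concentrated at a few places. Joining CpGs at most 50 kb apart gave 335 loci. In 25 of them, which held 100 or more CpGs read in all libraries, lay 2620 of the intergenic CpGs (75.8%). These borders were set after the data were seen. Median coverage was 12.4 reads in these loci and 3.47 elsewhere, and mean methylation was 70.9% against 83.0%. The largest number of intergenic CpGs was at Cdk1, the mitotic kinase (438 CpGs, mean 75.4%). Others lay at Ttk, a spindle checkpoint kinase, and its neighbour Elovl4 (221 CpGs, 75.4%), at Ccnb1, which encodes the cyclin B1 partner of Cdk1 (220 CpGs with its neighbours, 82.4%), and at Top2a, a topoisomerase of replicating cells, with Igfbp4 (177 CpGs, 67.6%). The proliferation marker Mki67 had 74 (83.4%). The locus of the cell cycle inhibitor Cdkn1a and the p53-induced lincRNA Trp53cor1 had 149 (77.1%). Metabolic and stress genes were Mlxipl with Vps37d (234 CpGs, 66.6%), Txnip, a glucose-induced inhibitor of thioredoxin (90 CpGs, 54.2%), Rgs2, a regulator of G protein signalling (83 CpGs, 74.9%), and Bag3, a chaperone cofactor (78 CpGs, 73.7%).

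Of the gene lists, the cell cycle list (18 genes) had intergenic CpGs nearest to 3 members, Ccnd1, Cdkn1a and Mki67, with 309 CpGs in all. Olfactory and vomeronasal receptor genes were nearest to 10 CpGs, and developmental factors to 4, at Gata2 and Wnt16. No intergenic CpG was nearest to a gene of the lists for beta cell identity (20 genes), other endocrine cells (11), exocrine cells (11), blood and vessel cells (12), imprinted genes (20) or histone clusters. Most of the imprinted cluster on chromosome 7 falls in a stretch that was left out by rule. The same rule applied to every list, so a listed gene inside a left-out stretch could be absent for that reason alone. Absence from these counts is therefore not a finding about such a gene.

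Low methylation came in runs. Runs of 5 or more consecutive intergenic CpGs, each under 20% and at most 200 bp from the next, numbered 10. They held 268 of the 317 CpGs under 20% (84.5%), of which 160 were in 1 run upstream of Ccnd1. The 10 runs lay near 7 genes, and 8 of them were upstream of the nearest start. CpGs inside genes were left out by rule, which limits the downstream side. The upstream share of all intergenic CpGs is not given here. These runs were chosen by their level, so the values describe them and carry no test.

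The longest run lay upstream of Ccnd1, which encodes cyclin D1, the partner of Cdk4 and Cdk6 in leaving G1. It spanned chr7:144940892-144943814, 160 CpGs over 2923 bp, from 1.02 to 3.94 kb before the start at 144939869 on the reverse strand. CpGs within 1 kb of the start were left out by rule, so the end of the run towards the gene was not measured. The run read 1.58%, 0.639%, 2.1% and 1.65% in young standard and 2.05%, 0.985%, 1.12% and 1.43% in young high-fat islets. It read 1.42%, 1.09%, 1.56% and 1.46% in old standard and 3.00%, 1.28% and 1.14% in old high-fat islets. All 15 libraries were thus at 3.00% or lower, and the groups overlapped. The low stretch ended abruptly. CpGs at 3 to 4 kb upstream averaged 1.22% (61 CpGs), those at 4 to 4.5 kb 71.8% (6 CpGs), and those at 4.5 to 5 kb 88.0% (6 CpGs).

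Over all 172 intergenic CpGs upstream of Ccnd1, with 1136 to 2320 reads in a library, pooled reads were methylated at 7.46% ± 0.54 (SD, n = 4) in young standard and 7.50% ± 0.90 (SD, n = 4) in young high-fat islets. Old standard islets had 7.11% ± 1.64 (SD, n = 4) and old high-fat islets 8.33% ± 1.93 (SD, n = 3). These CpGs join gene-start CpGs in the blocks used for testing. Split off as a block of their own, a choice made after seeing the data, they differed between diets by 0.04 points in young (adjusted p = 0.987, quasi-binomial model) and 1.22 points in old islets (adjusted p = 0.959). The difference between ages was 0.24 points (adjusted p = 0.992).

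Upstream of Txnip, highly and lowly methylated stretches alternated. CpGs at 7 to 9 kb before the start averaged 79.9% (27 CpGs), those at 6 to 7 kb 23.7% (13 CpGs), those at 5 to 6 kb 67.2% (10 CpGs), and those at 4 to 5 kb 59.8% (15 CpGs). At 3 to 4 kb they averaged 63.2% (10 CpGs), and at 2.2 to 3 kb 4.38% (13 CpGs). The run nearest the start was chr3:96555057-96555656, 13 CpGs at 2.30 to 2.90 kb upstream of the start at 96557957. It read 3.70%, 2.4%, 7.55% and 6.86% in young standard, 0%, 0.610%, 17.3% and 2.09% in young high-fat, 5.62%, 2.74%, 5.78% and 3.33% in old standard and 1.94%, 3.25% and 2.35% in old high-fat islets. The young high-fat replicate 3 stood alone above 8%. The farther run was chr3:96551128-96551532, 8 CpGs, with a mean of 9.66% and libraries from 2.38% to 16.0%. The block of 24 CpGs around it, chr3:96550625-96551607, averaged 49.6% with single CpGs from 1.73% to 95.8%, so its middle level was made of low and high CpGs side by side.

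At Cdk1 (chr10, gene at 69336635-69352938, reverse strand), 2 runs lay downstream of the gene. The nearer, chr10:69334893-69335450 with 14 CpGs, began 1.19 kb past the gene end and averaged 8.26%. The farther, chr10:69321407-69322046 with 23 CpGs, was 14.6 kb past the end and averaged 5.24%. It read 2.65%, 4.92%, 4.71% and 3.76% in young standard and 6.88%, 5.21%, 6.54% and 7.47% in young high-fat islets, which did not overlap. The old standard libraries read 7.22%, 0.984%, 11.9% and 4.74%, and the old high-fat libraries 0%, 3.57% and 8.08%, which did. The enclosing block of 26 CpGs, chr10:69321407-69322103, read 2.34% to 6.01% on standard and 5.50% to 9.23% on high-fat diet in young islets, which overlapped. Its young diet difference was 2.92 points, with an adjusted p of 0.858 in the quasi-binomial model. Between the runs methylation was intermediate to high. The block chr10:69332385-69334159 (39 CpGs) averaged 92.4% and the block chr10:69322860-69325528 (60 CpGs) 85.8%. The block chr10:69326793-69328892 (37 CpGs), which holds the 4930423B08Rik window, averaged 68.4%, and the 3 CpGs of chr10:69322364-69322551 averaged 66.2%.

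The remaining runs were shorter. Upstream of Igfbp4, which encodes a binding protein of insulin-like growth factors, 19 CpGs at chr11:99039728-99040227 averaged 2.4%. Like the Ccnd1 run, it came up to the 1 kb border, at 1.02 kb from the start, so its end towards the gene was not measured. Upstream of Rgs2, 9 CpGs at chr1:144006497-144006888 averaged 0.827%. Near the pseudogene Gm6686, 12 CpGs at chr17:15577485-15577577 averaged 0.674%, with 11 of 15 libraries at 0%. The last 2 runs, of 5 CpGs each at chr5:135089751-135089856 and chr5:135090004-135090048, lie in and just past the Mlxipl window shown above and averaged 7.73% and 6.90%.

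**Figure D2:**
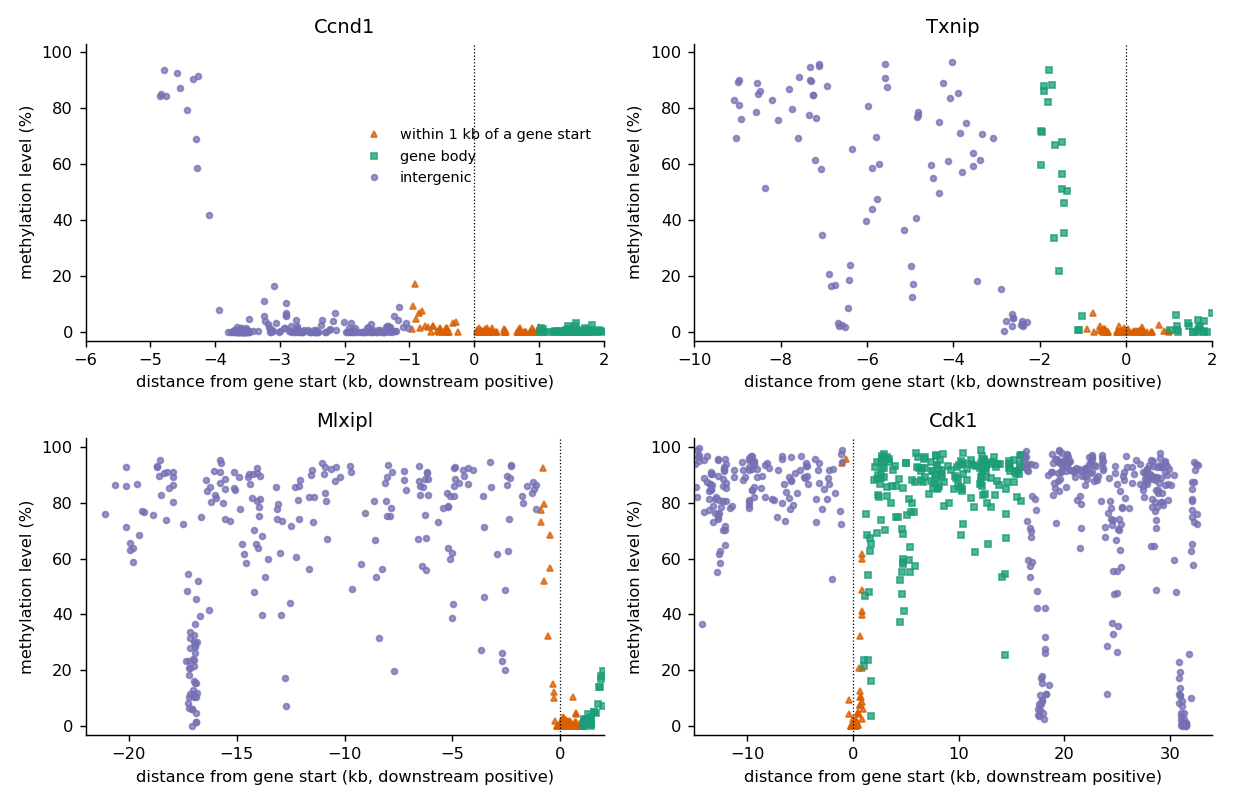
Methylation in percent (vertical axis, mean of 15 libraries) of every CpG read in all libraries against distance in kb from the deposited gene start (dotted line) at Ccnd1, Txnip, Mlxipl and Cdk1. Each point is 1 CpG, coloured by its class. The low stretch runs to 3.94 kb upstream of Ccnd1, and separate low runs lie upstream of Txnip, 17.0 kb upstream of Mlxipl and beyond the Cdk1 gene.

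For tests, neighbouring CpGs were joined into blocks of 3 or more at most 200 bp apart. The 304 purely intergenic blocks held 2547 CpGs. Their median level was 84.9%, with 199 blocks at 80% or more, 87 from 60% to 80%, 12 from 40% to 60%, 2 from 20% to 40% and 4 under 20%. The SD over the 15 libraries had a median of 5.47 points per block. The highest levels among blocks of 5 or more CpGs were near Gm7204 (98.5%), Gm21859 (98.2%), 5930403N24Rik (97.8%) and Nhlh2 (97.7%), each on 5 to 36 reads per library. Blocks nearest to 50% lay upstream of Txnip (49.6% and 47.7%), at the Mlxipl upstream start (48.1%, chr5:135089407-135091377, 60 CpGs) and upstream of the microtubule regulator Stmn1 (54.0%, chr4:134465706-134466484, 18 CpGs). Single CpGs within these blocks also ranged widely. They ran from 0% to 95.2% at Mlxipl, with 19 under 20%, from 16.2% to 87.8% at Stmn1, and from 12.6% to 78.6% in the 47.7% Txnip block. The block upstream of Trp53cor1 (chr17:29080814-29082595, 48 CpGs) averaged 64.8%, and the block of 22 CpGs 5.29 kb upstream of Cdkn1a averaged 85.7%.

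The first comparison asked whether 1 week of high-fat diet changed intergenic methylation in young islets. The mean over all 3456 CpGs was 73.4% ± 0.30 (SD, n = 4) on standard and 73.5% ± 0.25 (SD, n = 4) on high-fat diet, a difference of 0.14 points (SE 0.19), or 0.29 points (SE 0.62) on pooled reads. Read counts were fitted with a quasi-binomial model, and p-values were adjusted by Benjamini-Hochberg over CpGs of all classes. This called 0 of 746 testable intergenic CpGs and 0 of 225 blocks. The background share called was 0% of 2809 CpGs and 0% of 923 blocks. An unadjusted p under 0.05 was found for 32 of the 746 CpGs (background 3.45%) and 14 of the 225 blocks (background 5.42%), and limma on logit values also called 0. Diet groups did not overlap in 6 of 225 blocks (2.67%, background 2.82%) and 16 of 746 CpGs (2.14%, background 2.1%). All these shares were close to their backgrounds.

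The CpGs and blocks with the smallest p in young islets did not pass the adjusted threshold. A CpG 11.0 kb upstream of Ttk (chr9:83823646-83823647) read 36.4%, 42.9%, 27.3% and 40.0% on standard and 71.4%, 69.0%, 61.9% and 65.0% on high-fat diet. The diet groups did not overlap, the difference was 30.2 points (SE 4.0) on 8 to 29 reads in a library, and the adjusted p was 0.996. In old islets the same CpG read 30.8%, 61.1%, 33.3% and 33.3% on standard and 62.5%, 37.5% and 62.5% on high-fat diet, which overlapped. A CpG 2.82 kb from the start of Faf1, a gene beside the cell cycle inhibitor Cdkn2c, read 46.9% to 54.5% on standard and 65.6% to 67.2% on high-fat diet (difference 14.8 points, SE 1.7, adjusted p = 0.996). Near Cdk1 the CpG chr10:69324740-69324741 differed by 16.2 points (SE 3.3).

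Among blocks, the smallest young p-values came from 9 CpGs near Tmcc3os (-18.7 points, SE 6.8), 3 CpGs near 1700125G22Rik (17.1 points, SE 5.2) and 8 CpGs 3.07 kb upstream of Rgs2. The Rgs2 block, chr1:144007227-144007565, read 84.2%, 84.7%, 83.8% and 90.3% on standard and 81.4%, 75.8%, 77.9% and 70.0% on high-fat diet. Every high-fat library was below every standard library, with a difference of -9.46 points (SE 2.8) and an adjusted p of 0.858. The lowly methylated block next to it, chr1:144006366-144007007, was at 10.4% ± 1.5 (SD, n = 4) and 12.8% ± 0.93 (SD, n = 4).

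The same comparison in old islets gave a mean of 74.2% ± 0.54 (SD, n = 4) on standard and 74.2% ± 0.75 (SD, n = 3) on high-fat diet, a difference of 0.01 points (SE 0.51), or 0.48 points (SE 0.79) on pooled reads. The model called 0 of 494 intergenic CpGs and 0 of 226 blocks, against backgrounds of 0% of 1764 CpGs and 0% of 917 blocks, and limma also called 0. Unadjusted p-values under 0.05 numbered 14 CpGs (background 2.66%) and 7 blocks (background 5.02%). Diet groups did not overlap in 6 of the 226 blocks (2.65%, background 5.34%) and 14 of the 494 CpGs (2.83%, background 3.85%).

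The block with the smallest p in old islets lay 11.1 kb from the start of Mrpl23, a mitochondrial ribosomal protein gene (chr7:142543941-142544181, 5 CpGs). It read 84.4%, 89.6%, 84.1% and 82.7% on standard and 96.2%, 95.7% and 95.3% on high-fat diet. These did not overlap, and the difference was 10.5 points (SE 1.5) with an adjusted p of 0.843. A block of 11 CpGs 3.80 kb upstream of Mki67 (chr7:135720181-135720920) read 67.9%, 76.0%, 73.9% and 75.1% on standard and 62%, 65.2% and 68.2% on high-fat diet. Its groups overlapped slightly, with a difference of -8.12 points (SE 2.6) and an adjusted p of 0.933. A block near Cdk1, chr10:69367513-69368495 with 17 CpGs, differed by 4.44 points (SE 1.1). The single CpGs with the smallest p, near Bag3, Nudcd2 and Top2a, differed by 10.0 (SE 3.7), 12.1 (SE 4.8) and 19.7 points (SE 8.0).

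Whether the diet difference itself changed with age was tested by the interaction of diet and age. None of 370 CpGs and none of 213 blocks was called (background 0% of 1322 CpGs and 0% of 893 blocks), and limma called 0. An unadjusted p under 0.05 was found for 14 CpGs (background 4.31%) and 6 blocks (background 4.14%). The smallest p among blocks belonged to 6 CpGs 8.91 kb upstream of Txnip (chr3:96548868-96549048). Young islets read 85.4%, 78.4%, 76.7% and 72.9% on standard and 95%, 91.4%, 78.4% and 92.9% on high-fat diet. Old islets read 87.2%, 86.2%, 75.8% and 92.2% on standard and 79.2%, 68.6% and 68.4% on high-fat diet. The diet difference was 11.0 points in young and -13.3 points in old islets, and their difference of -24.3 points (SE 6.7) had an adjusted p of 0.794 on 19 to 65 reads. The Mki67 block above followed, at -10.9 points (SE 4.2). Next was a block 4.71 kb before the deposited start of Mlxipl, between its 2 RefSeq starts, at -10.7 points (SE 5.6). Differences of the 3 single CpGs with the smallest p were positive. Near Vps37d, Ttk and Top2a they were 34.4 (SE 13.3), 27.7 (SE 8.3) and 26.6 points (SE 9.8). Each had an adjusted p of 0.934 in the quasi-binomial model. Of the units with an unadjusted p under 0.05, 9 CpGs and 1 block were positive, and 5 CpGs and 5 blocks negative.

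**Figure D3:**
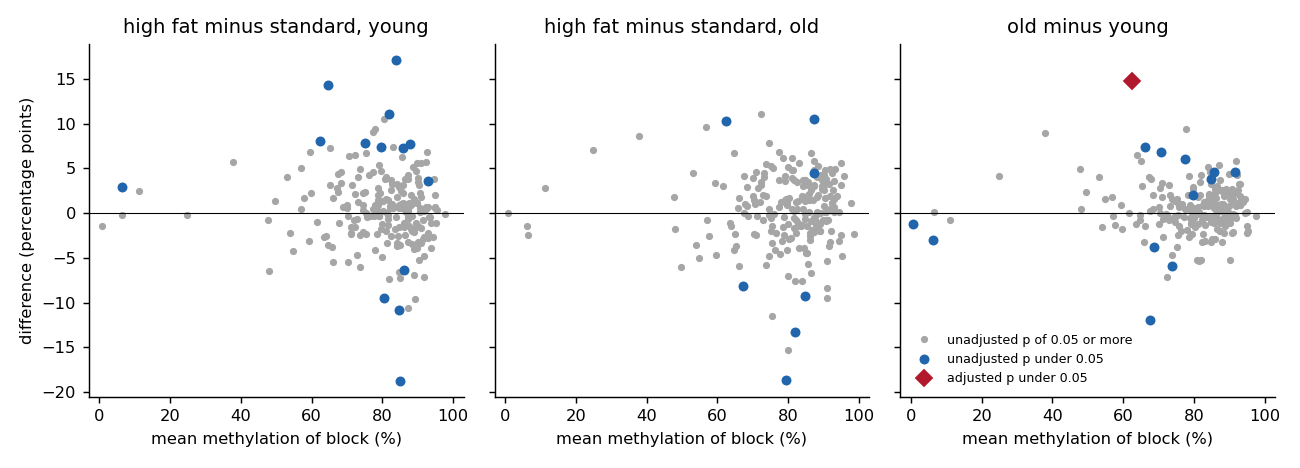
Difference in methylation in percentage points (vertical axis) of each tested intergenic block against its mean methylation in percent, for diet in young, diet in old, and age. Each point is 1 block, coloured by its p-value in the quasi-binomial model. Differences lie on both sides of 0 in the 3 comparisons, and 1 block, in the comparison of ages, has an adjusted p under 0.05.

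Age was compared over all 15 libraries with diet as a covariate. The mean over the 3456 CpGs was higher in old islets by 0.75 points (SE 0.27). The mean over every CpG listed in a library, whatever its class, was also higher in old islets, at 77.5% and 78.3% on the 2 diets against 76.3% and 76.5% in young islets, and its part in the intergenic difference was not tested. The model called 0 of 370 intergenic CpGs (background 0% of 1322) and 1 of 213 blocks (background 0.112% of 893). Unadjusted p-values under 0.05 numbered 14 CpGs (background 5.67%) and 13 blocks (background 7.05%), and limma called 0 CpGs and 0 blocks. The single CpGs with the smallest p, near 1700125G22Rik, Nudcd2 and Cdk7, differed by 11.2 (SE 3.7), 15.1 (SE 5.2) and -6.44 points (SE 2.7). Their adjusted p-values were 0.755, 0.771 and 0.771.

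The block called for age held 34 CpGs at chr5:95973901-95974887, 17.0 kb from the start of Cxcl13 and past the end of that gene. Cxcl13 encodes a chemokine that attracts B lymphocytes. Young standard islets read 43.4%, 52.6%, 55.4% and 56.6%, and young high-fat islets 60.5%, 59.4%, 51.7% and 68.4%. Old standard islets read 52.5%, 69.6%, 78.9% and 61.2%, and old high-fat islets 69.6%, 75.9% and 82.1%. Old libraries were mostly higher but the ages overlapped, with young from 43.4% to 68.4% and old from 52.5% to 82.1%. The age difference in library percents, averaged over the 2 diets, was 14.7 points (SE 4.0). The adjusted p in the quasi-binomial model was 0.0486. Most of the difference lay in the first 300 bp, a stretch set apart after its values were seen. There 18 of 18 CpGs were higher in old islets, with library means of 31.8% ± 10.5 (SD, n = 8) in young and 52.3% ± 14.9 (SD, n = 7) in old. In the rest of the block 10 of 16 CpGs were higher, with 79.3% ± 4.9 (SD, n = 8) and 83.2% ± 5.5 (SD, n = 7). These CpGs share reads and are not replicates. Taken CpG by CpG, on reads pooled within each age, the median age difference was 7.25 points over the whole block. This median over CpGs is not the same measure as the 14.7 points, which average library percents, so their sizes cannot be compared directly. The median was 22.6 points in the first 300 bp and 1.52 points in the rest. Both ages had fewer reads per CpG in the low first stretch, and old libraries more markedly so. The part of the 14.7 points due to this mix of reads was not tested.

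The call on the Cxcl13 block rested on few reads and did not hold widely. Old libraries had 4.17 reads per CpG in it and young libraries 5.49. The adjusted p was 0.381 with limma on logit values, 0.625 without moderation of the dispersion, 0.890 on standard diet alone and 0.0563 with a coverage minimum of 5. Leaving out 1 library at a time gave differences of 12.5 to 16.9 points and adjusted p-values of 0.00303 to 0.192. The call was lost without young standard replicate 1 (0.192) or 4 (0.0952), young high-fat replicate 1 (0.0980) or 3 (0.0782), old standard replicate 3 (0.0972), or old high-fat replicate 2 (0.101) or 4 (0.151). In the authors' deposited table the Cxcl13 RNA difference between diets was -0.11 (log2) in young and -0.24 (log2) in old islets, with no adjusted p given.

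**Figure D4:**
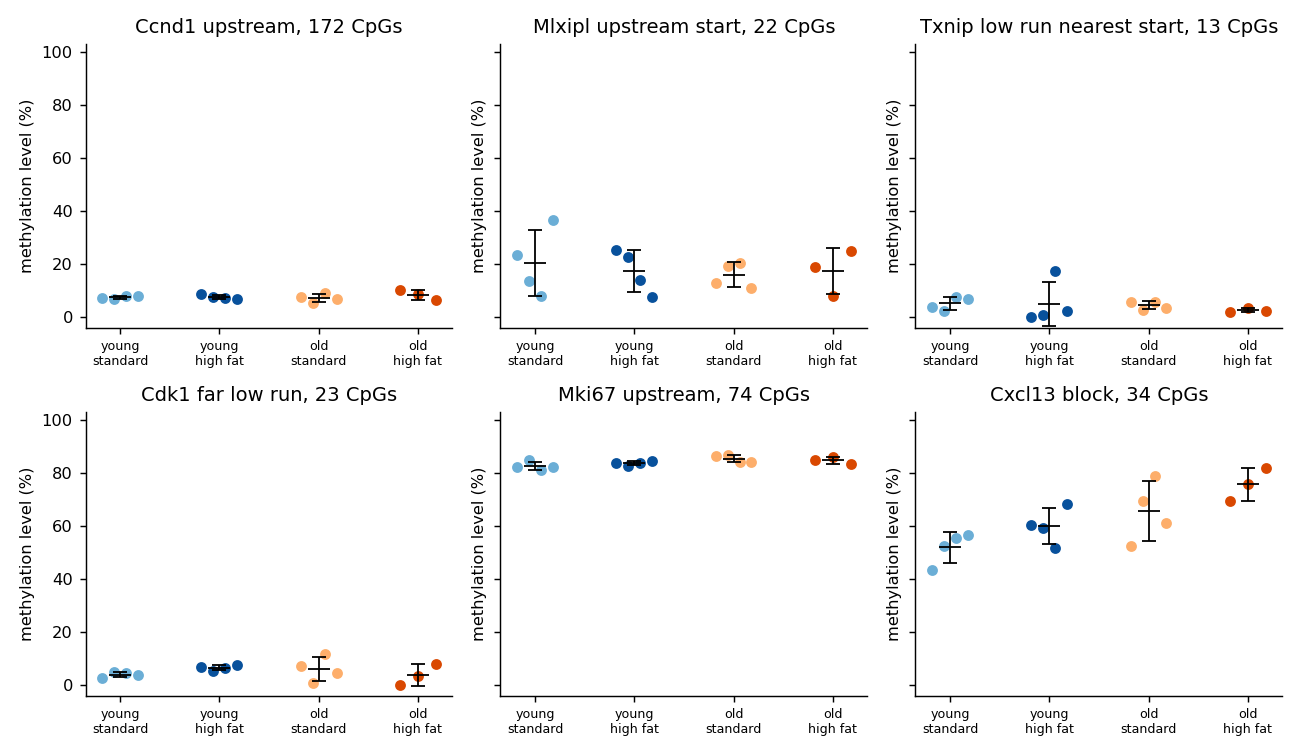
Methylation in percent (vertical axis, pooled reads) in 6 intergenic regions by group. Each point is 1 library, and bars show the mean and SD. Ccnd1, Txnip and Cdk1 regions stay low in every group, Mki67 stays above 80%, and the old libraries of the Cxcl13 block are mostly above the young ones, with overlap.

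The genes beside these CpGs often differed in RNA between diets. Of the 47 genes nearest to an intergenic CpG in the 25 read-rich loci, 34 had an adjusted p in the authors' deposited tables. In young islets 15 of the 34 were higher and 0 lower on high-fat diet (background 3.94% in either direction). In old islets 7 were higher and 0 lower (background 12.5%). How these loci came to be read deeply is not given in the sources used here, so these shares describe the loci and carry no test.

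In the authors' deposited tables, Cdk1 RNA was higher on high-fat diet in young islets by 0.83 (log2, adjusted p = 1.01e-06). The mean over its 438 intergenic CpGs, each weighted equally, differed by 0.07 points (SE 0.44), and pooled reads over them, in which deeper CpGs weigh more, by 0.83 points (SE 0.76). Rgs2 RNA was higher by 1.18 (log2, adjusted p = 4.48e-22) in the authors' deposited table for young islets, and its 83 CpGs differed by -0.22 points (SE 0.81), or -0.57 (SE 0.75) on pooled reads. Mki67 RNA was higher by 0.66 (log2, adjusted p = 0.000202) in the authors' deposited table, and its 74 CpGs differed by 1.09 points (SE 0.81), or 1.01 (SE 0.85) on pooled reads. In old islets Txnip RNA was higher by 0.75 (log2, adjusted p = 2.49e-17) in the authors' deposited table, and its 90 CpGs differed by 0.41 points (SE 0.77). On pooled reads the sign turned, with 54.2% on standard and 51.6% on high-fat diet, a difference of -2.60 points (SE 1.15). Ccnd1 RNA was higher on high-fat diet in old islets by 0.26 (log2, adjusted p = 0.0203) in the authors' deposited table, and its 172 CpGs differed by 0.55 points (SE 0.65), or 1.22 (SE 1.38) on pooled reads.

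Across the 16 read-rich loci with at least 50 intergenic CpGs, the diet difference of the mean over CpGs ranged from -0.66 to 2.25 points in young islets and from -1.12 to 1.63 points in old islets. Young islets were higher on high-fat diet at 9 of the 16 loci and old islets at 9. Over all 25 read-rich loci, the smallest with 6 intergenic CpGs, the ranges were wider, from -4.40 to 4.60 points in young and from -5.30 to 3.98 points in old islets. High-fat diet was higher at 13 of the 25 in young and 16 of the 25 in old islets. Old islets were higher than young at 17 of the 25. The age difference ranged from -1.13 points at Txnip (SE 0.69) to 2.63 points at Bag3 (SE 1.08), and was positive at 9 of the 16. Mki67 was next, at 2.07 points (SE 0.68). No test was made on these locus means.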

How the data were processed

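DNA of 15 islet methylation libraries was analysed. The deposited files list coverage counts and the percent of unconverted cytosines per CpG strand; the submitters' processing notes name Trimmomatic, BSMAP and mm10, with no role or order. Counts of methylated reads were recovered from coverage and percent, which gave whole numbers throughout, and strands were merged. Gene intervals, the authors' mean expression signal, log2 fold changes and adjusted p-values come from the deposited DESeq2 tables. Counts of the deposited RNA table served only for the marker check. The CpGs, lists and loci were chosen with earlier results of these data known.

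Methylated and unmethylated reads were fitted per CpG (10 or more reads in every library compared) or per block with a quasi-binomial model in Python 3.11.15 (numpy 2.4.6, scipy 1.17.1), with a moderated dispersion of at least 1, an F test and Benjamini-Hochberg adjustment over all classes, at a threshold of 0.05. It was tested on simulated data. SEs were computed from group SDs over libraries. limma 3.58.1 on logits (offset 0.5) was an alternative. A block was intergenic when every CpG in it was. At most 8 called units per comparison were named by size of difference, otherwise the 3 with the smallest p. Blocks were also named for most CpGs (5), and for the lowest, highest and most intermediate levels (4 each, blocks of 5 or more CpGs). Within 21 pairs of libraries of the same group, read counts differed beyond sampling noise, so none was taken as a repeat deposit. No per-sample column was left unmapped. Other alternatives were other coverage minimums, gap lengths, strands kept apart, and each library left out.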

Additional observations from a re-analysis of the deposited data

Results flagged for a closer look

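Of 126 groups of 4 libraries looked at for the named CpGs and blocks, 18 had a library far from the other 3, where chance gives about 1 in 20. In 10 of them the other 3 libraries all stood at 100% or at 0%, so that any departure stands apart. These were the blocks near Gm21859 (young standard 93.3%, young high-fat 92.0%, old standard 93.3%), Gm7204 (young standard 88.9%, young high-fat 95%), Nhlh2 (young standard 91.7%, young high-fat 91.2%), 5930403N24Rik (old standard 94.4%) and Gm6686 (young high-fat 2.27%), and a CpG near Nudcd2 (young standard 81.8%).

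In the remaining groups the block chr1:144007227-144007565 near Rgs2 had a young standard library at 90.3% against 83.8% to 84.7% in the others. The block chr7:135718591-135719761 upstream of Mki67 had a library at 87.3% in young standard (others 80.7% to 81.3%) and 85.8% in young high-fat islets (others 82.7% to 83.1%). Upstream of Txnip, young high-fat islets had a library at 49.1% in 1 block (others 43.1% to 44.1%) and at 18.4% in the lowly methylated block nearest the start (others 2.94% to 4.96%). A CpG near Bag3 had a young high-fat library at 100% (others 97.0% to 97.1%). In old standard islets, a CpG near Top2a had a library at 90.0% (others 63.2% to 66.7%), and the CpG upstream of Ttk a library at 61.1% (others 30.8% to 33.3%).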

How the results depend on the processing

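Counts of called CpGs and blocks for diet in young, diet in old and the interaction stayed at 0 under every alternative run. The 1 block called for age became 0 with a coverage minimum of 5, unmoderated dispersion, standard-diet libraries only, gaps up to 500 bp, limma or a replicate block. Leaving out libraries gave 0 to 1. The replicate block moved the adjusted p of the Cxcl13 block to 0.175 and changed no other call. No sign of pairing by replicate number was seen. Over 21 same-numbered pairs the correlation of deviations ran from -0.065 to 0.042, and over 63 other pairs from -0.060 to 0.078. With few reads per CpG, this check cannot show that the samples were unpaired. With 10 or more reads in every library (370 CpGs), the mean diet difference moved from 0.14 to -0.33 points in young and from 0.01 to 0.88 points in old islets, and the interaction from -0.12 to 1.21 points. The cause was not tested. Leaving out libraries gave 0.00234 to 0.24 points for diet in young, -0.23 to 0.44 in old, 0.63 to 0.97 for age and -0.37 to 0.31 for the interaction. Blocks split at the border of intergenic CpGs, added after seeing the data, gave 0, 0, 1 and 0 calls. Depth limits the CpG tests, since 370 of 3456 CpGs had 10 or more reads in every library.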
